A study of Rattus norvegicus with 6 samples.

Results

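Tetrahydrobiopterin (BH4) is the cofactor without which nitric oxide synthases cannot make nitric oxide. The 8 genes described here make BH4, regulate its synthesis, regenerate it or use it to make nitric oxide. They are Gch1, Gchfr, Pts, Spr, Qdpr, Nos1, Nos2 and Nos3, taken by symbol from a table of 43350 gene rows, each as its protein-coding row and, among several, the one with the most counts. All 8 were found, and 7 of them were among the 26663 rows that passed the level limit for testing, a mean of at least 0.5 FPKM (fragments per kilobase of transcript, scaled to library size). Nos2 lay under it.

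RNA was sequenced from dorsal root ganglia (DRG), which hold the cell bodies of the sensory neurons that reach the hind limb through the sciatic nerve. The tissue was lumbar segments 4 to 6 of male Sprague-Dawley rats at day 11, from 3 rats with chronic constriction injury (CCI) of the sciatic nerve and 3 sham rats. The labels give the sham rats' treatment as none, while the study's methods describe exposure of the nerve without ligation, 1 rat per library and the ipsilateral side. By those methods, animals of both groups were selected on how they performed in pain behavior tests. The labels give no age and no batch, and their library protocol speaks of a pooled sample, so the p-values measure the spread between these 6 libraries.

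BH4 is built from GTP in 3 steps. GTP cyclohydrolase, encoded by Gch1, performs the first and rate-limiting step, 6-pyruvoyltetrahydropterin synthase (Pts) the second and sepiapterin reductase (Spr) the last. GCHFR, the protein of Gchfr, binds GTP cyclohydrolase and mediates its feedback inhibition by BH4, and dihydropteridine reductase (Qdpr) returns the oxidized cofactor to BH4. Nos1 encodes the neuronal, Nos2 the inducible and Nos3 the endothelial nitric oxide synthase. In sensory neurons this pathway is known for the induction of Gch1 after axon injury and for its part in pain hypersensitivity.

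Library totals lay between 75423546 and 87615743 counts, so that 3 counts corresponded to 0.0342 to 0.0398 CPM (counts scaled to library size). Rat 1 of the CCI group stood farthest from the sham rats on the first principal component of all tested rows, which held 23.69% of the variance, at 77.4 against 38.5 and 17.9 for the other CCI rats and -50.6 to -38.6 for sham. It was also the highest of the 6 libraries for 4 of the 8 genes. Defining neuronal genes were abundant in every library, with a summed level of 3744 to 3852 FPKM in CCI and 3362 to 3889 FPKM in sham over 7 markers, none called. Within that sum 3 markers had groups that did not overlap, Nefh, a heavy neurofilament gene, at a log2 fold change of -0.54 and Tubb3 and Prph at 0.31 and 0.25. Over all tested rows, 8.62% had every CCI library above every sham library and 8.7% had every one below. In whole ganglia, fewer cells of a type and less RNA per cell cannot be told apart. Sham rat 1 stood apart in skeletal muscle genes, whose sum over 5 markers was 118 FPKM, against 17.3 and 4.98 FPKM in the other sham rats and 4.13 to 7.85 FPKM in CCI.

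Gch1, Spr and Nos1 were higher in CCI, and no gene of the 8 was lower. These 3 of 7 tested genes passed the study's limits, which ask for p under 0.05 before adjustment and a change of 0.58 or more on the log2 scale, by the quasi-likelihood test of edgeR, where 2.57% of all tested rows were higher and 1.26% were lower. None of the 7 passed a Benjamini-Hochberg adjusted p under 0.05 in that test, as 0.0938% of all rows did. Counted by unadjusted p alone, 4 of the 7 were under 0.05, where 10.7% of all rows were. With other tests on the same counts, edgeR's exact test placed 1 of the 7 under an adjusted p of 0.05 (Gch1), beside 0.866% of all rows. DESeq2's Wald test placed 2 there (Gch1 and Spr), beside 3.07% of the 24498 rows to which it gave an adjusted p. The median log2 fold change of the 7 was 0.44, beside 0.0055 over all tested rows. The genes were chosen with earlier results of these data known, so their counts beside all rows are a description and not a test.

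The 3 CCI libraries lay above all 3 sham libraries for Gch1, Spr, Qdpr and Nos1, or 4 of 7 genes, where 8.62% of all rows did so. None of the 7 had all CCI libraries below all sham libraries, where 8.7% of all rows did. CCI rat 1 was the highest library for each of the 4 genes, and the limit from how the genes were chosen holds here too.

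**Figure D1:**
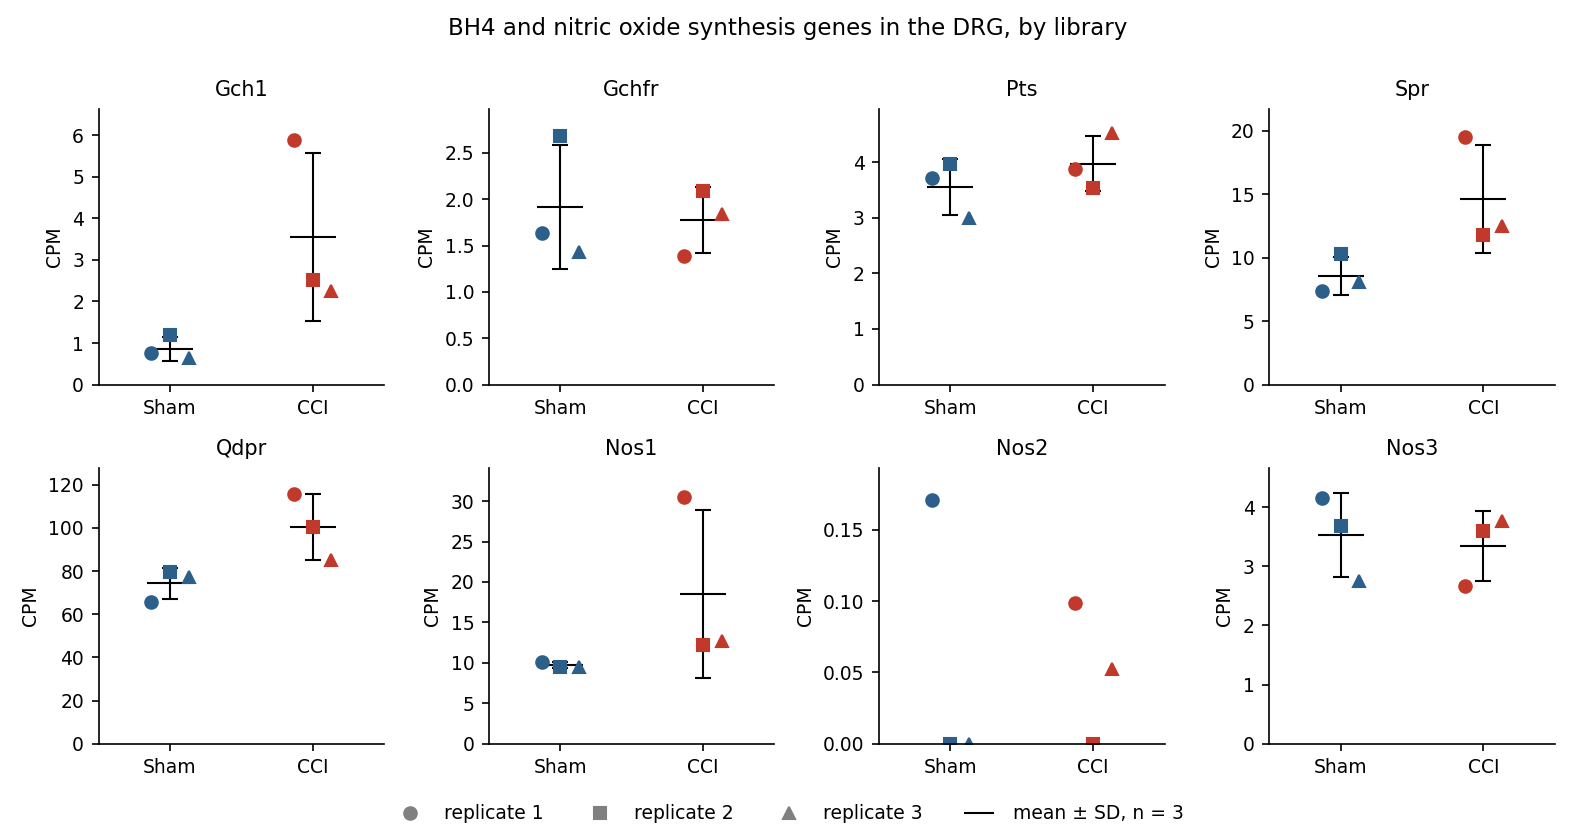
Expression in CPM (linear axes from 0, a separate scale for each gene) of the 8 genes in the 3 sham (blue) and 3 CCI (red) libraries. Points are libraries, with the mean and SD drawn for each group except for Nos2, and the CCI points of Gch1, Spr, Qdpr and Nos1 all lie above the sham points while those of Gchfr, Pts, Nos2 and Nos3 overlap with them.

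Gch1 showed the largest difference among the 8. Its row lies on the minus strand of chromosome 15 at 23934585 to 23969011 in the coordinates of the deposited table, whose genome the study's methods give only by a release number, with no build name. CCI rats 1, 2 and 3 had 5.88, 2.53 and 2.26 CPM, from 478, 204 and 172 counts. The sham rats had 0.762, 1.18 and 0.629 CPM, from 67, 94 and 52 counts. The lowest CCI library was thus above the highest sham library, and within CCI rat 1 was well above the other 2. Gch1 rose by a log2 fold change of 2.05 (SE 0.46, 95% interval 0.95 to 3.15), that is 4.14-fold (1.93 to 8.86), with an unadjusted p of 0.00342 and a Benjamini-Hochberg adjusted p of 0.205 by the quasi-likelihood test. Over the alternatives the adjusted p ran from 0.000507 to 0.477, and the call at the unadjusted limits was kept in all 18. Without CCI rat 1 the log2 fold change was 1.48.

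The sequence just before the start of Gch1 is shown because this gene is the entry to the pathway. It comes from the RefSeq promoter table, in which 7 of the 8 genes were matched, all but Nos2, and spans 250 bases at chr15:22917413-22917662 on the minus strand of GRCr8, a build whose coordinates differ from those of the deposited table. Capitals mark the 5 letters TGACG, the core of the cAMP response element (CRE), at 106 to 102 bases before the start, and the CCAAT box at 88 to 84 bases before it.
Gch1: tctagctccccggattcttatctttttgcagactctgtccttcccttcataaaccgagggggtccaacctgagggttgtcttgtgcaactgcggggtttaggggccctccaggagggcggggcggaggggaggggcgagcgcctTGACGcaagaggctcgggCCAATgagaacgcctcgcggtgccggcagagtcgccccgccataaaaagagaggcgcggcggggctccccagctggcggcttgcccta
Both motifs were chosen after this sequence had been seen. Over both strands, 18.2% of the 33469 promoter windows of 250 bases in the table hold TGACG and 34.0% hold CCAAT. Among the matched genes, TGACG is also in the window of Nos1, and CCAAT is also in those of Gchfr, Spr and Qdpr. Neither the full CRE TGACGTCA nor the AP-1 site TGANTCA is in the Gch1 window. AP-1 factors and ATF family members, among them the injury marker Atf3, are known to bind AP-1 and CRE sites, and binding at Gch1 was not tested.

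Gchfr, which encodes the feedback regulator, was not called. It lies on chromosome 3 at 110975923 to 110979957, plus strand. Its levels were 1.39, 2.09 and 1.84 CPM in CCI and 1.64, 2.68 and 1.43 CPM in sham. The groups overlapped, and the log2 fold change was -0.11 (95% interval -0.84 to 0.62), with an adjusted p of 0.941 in the quasi-likelihood test of edgeR. Leaving out single rats moved it from -0.28 to 0.21, and it turned positive without CCI rat 1 and without sham rat 2.

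The ratio of Gch1 to Gchfr, which can be taken per length from FPKM, differed between groups. It was 1.81, 0.513 and 0.522 in the CCI rats and 0.197, 0.188 and 0.187 in the sham rats, so that Gch1 exceeded Gchfr only in CCI rat 1 of these 6. The sham values differed very little among themselves, and each CCI value was above all of them. Sham ratios rest on 67, 94 and 52 counts of Gch1 and 144, 213 and 118 of Gchfr. With counts this low, their closeness is no measure of how tightly the ratio is held. The difference of mean log2 ratios was 2.04, and the two-sided exact permutation p was 0.1, the smallest that 3 rats against 3 can give.

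**Figure D2:**
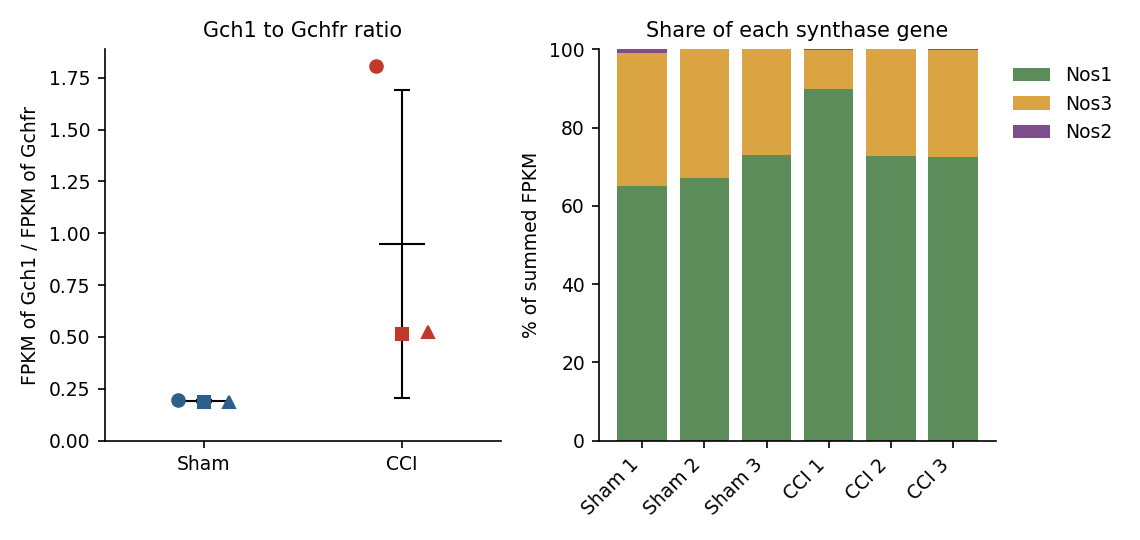
Left, FPKM of Gch1 divided by FPKM of Gchfr (linear axis from 0) per rat, with mean and SD of 3 rats. Right, the percent of the summed FPKM of the 3 nitric oxide synthase genes that each gene held in each library. The 3 CCI ratios lie above the sham ratios of 0.187 to 0.197, and Nos1 holds 89.8% in CCI rat 1 against 65.1% to 73.0% in the other 5 libraries.

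Pts, the second enzyme, was at 3.87, 3.53 and 4.51 CPM in CCI and 3.71, 3.97 and 2.99 CPM in sham, with overlapping groups. Its row on chromosome 8 at 54912835 to 54961265, minus strand, gave a log2 fold change of 0.16 (95% interval -0.27 to 0.59) and an adjusted p of 0.829 with edgeR's quasi-likelihood test. The upper bound of that interval is just above the study's limit of 0.58. The row of Plet1 lies within the Pts row on the opposite strand, with 33 counts over all libraries against 1832 for Pts.

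Spr, the last enzyme of synthesis, was higher in CCI by a smaller estimate than Gch1, though the difference between these genes was not tested. On the minus strand of chromosome 4 at 116912351 to 116916236, it was measured at 19.5, 11.8 and 12.5 CPM in CCI rats and 7.33, 10.2 and 8.06 CPM in sham rats. CCI rat 1 was again far above the other libraries, and CCI rat 2 was close to sham rat 2. Spr rose by a log2 fold change of 0.77 (SE 0.23, 95% interval 0.22 to 1.33), or 1.71-fold, with an unadjusted p of 0.0136 and an adjusted p of 0.315 in the quasi-likelihood test. Without CCI rat 1 the log2 fold change was 0.51 and the call was lost, because it lay under 0.58 while its unadjusted edgeR p was 0.0268.

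Qdpr, which regenerates BH4, was by far the most abundant of the 8. It was counted 9420, 8120 and 6491 times in CCI and 5795, 6332 and 6380 times in sham. All CCI libraries were above all sham libraries, though the lowest CCI and the highest sham library were near each other. The log2 fold change of the row (chromosome 14, 70164650 to 70178284, plus strand) was 0.44 (SE 0.13, 95% interval 0.13 to 0.75), with an unadjusted p of 0.0127 and an adjusted p of 0.311 in edgeR's quasi-likelihood test. It was under the fold limit and so was not called, in this fit and in the alternatives alike.

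Nos1, the neuronal synthase, stood out mainly in CCI rat 1. CCI rats 1, 2 and 3 had 30.5, 12.2 and 12.8 CPM and sham rats 10.1, 9.52 and 9.47 CPM. The sham libraries were close together, the CCI libraries all lay above them, and 1 CCI library was more than double the other 2. Nos1 rose by a log2 fold change of 0.93 (SE 0.36, 95% interval 0.063 to 1.79), or 1.90-fold, with an unadjusted p of 0.0391 and an adjusted p of 0.429 in the same test. Without CCI rat 1 the log2 fold change was 0.36, which is below the limit, and without any single sham rat it was 0.91 to 0.96 with unadjusted edgeR p-values of 0.0799 to 0.0924. Skeletal muscle also expresses Nos1. Sham rat 1, with its high muscle genes, had 10.1 CPM of Nos1, where sham rats 2 and 3 had 9.52 and 9.47 CPM. The sum of muscle markers in sham rats 2 and 3 was 4.98 and 17.3 FPKM, and any link to Nos1 was not tested.

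The Nos1 row spans 44213943 to 44520341 on the minus strand of chromosome 12 and takes in the Fbxo21 row on the same strand. Fbxo21 had 54478 counts over all libraries against 6864 for Nos1, and its own log2 fold change was -0.18 (unadjusted p = 0.0196 in the edgeR fit), opposite in sign to that of Nos1. How the authors' counting divided reads between overlapping rows is not stated, so the Nos1 value carries that uncertainty. A second row with the Nos1 symbol, without strand or type, lies inside the first at 44294984 to 44296559. It had 700, 358 and 282 counts in CCI and 258, 267 and 184 in sham, with the highest value again in CCI rat 1. Its log2 fold change was 0.97 (SE 0.35, adjusted p = 0.399 in edgeR's quasi-likelihood test), and its call was lost without CCI rat 1, sham rat 1 or sham rat 3.

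Among the 7 RefSeq promoter windows, that of Nos1 alone held the AP-1 site and the CRE as spelled above, each on a match of all letters. Of all windows in the table, 6.34% hold TGANTCA and 1.59% hold TGACGTCA on either strand. The 2 stretches of 30 bases are shown with the matched letters in capitals, the first at chr12:44372016-44372045 and the second at chr12:44371838-44371867, both on the minus strand of GRCr8.
Nos1, AP-1 site at 196 to 190 bases before the start: accctatgcttgTGAGTCAcagtcatcaga
Nos1, CRE at 9 to 2 bases before the start: aatgagcagatgacgccaagtTGACGTCAa
The start site used by the table lies 84534 bases inside the RefSeq gene, so it is an internal start of Nos1. The matches describe these letters and were not set against any binding data.

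Nos2, the inducible synthase, was barely detected in ganglia of either group. Its row on chromosome 10 at 66189786 to 66313190, plus strand, had 8, 0 and 4 counts in CCI and 15, 0 and 0 in sham. All sham counts came from rat 1, the library with high muscle genes. The summed level of 5 neutrophil markers was also highest in that library, at 26.8 FPKM, against 8.29 and 6.79 FPKM in sham rats 2 and 3. Of these markers Elane did not follow, with 8 counts in each sham rat and its highest level in CCI rat 3, at 18 counts. Mpo and Elane lay under the level limit. Any link of muscle or neutrophil genes to Nos2 was not tested. Both groups held libraries without a count of Nos2, and a count of 0 allows up to 3 counts, or 0.0342 to 0.0398 CPM. In the fit with no filter on low rows the log2 fold change was -0.18 with a 95% interval of -4.79 to 4.43, so a difference was not detectable at this depth. The row overlaps that of Lgals5, which had 268 counts against 27 for Nos2.

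Nos3, the endothelial synthase, was at 2.67, 3.59 and 3.77 CPM in CCI and 4.15, 3.69 and 2.76 CPM in sham. The groups overlapped over nearly their whole range, and CCI rat 1, which was highest for Gch1, Spr, Qdpr and Nos1, was lowest here. Its row (chromosome 4, 7320668 to 7342410, minus strand) had a log2 fold change of -0.080 (95% interval -0.61 to 0.45) and an adjusted p of 0.942 by edgeR's quasi-likelihood test. Leaving out single rats moved it between -0.23 and 0.059. The libraries at both ends were the same for the sum of 4 detected endothelial markers. This sum was lowest in CCI rat 1, at 14.2 FPKM, and highest in sham rat 1, at 21.1 FPKM, with none called. Of the markers, Cdh5 and Kdr had both ends in those libraries. Tek and Vwf were lowest in sham rat 3, at 22.1 and 32.2 CPM, and Tek was highest in CCI rat 3. Any link to Nos3 was not tested. Cldn5, another endothelial marker, had 0 counts in all libraries.

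Compared per length, the 3 synthase genes were unequal. Nos1 held 89.8%, 72.8% and 72.6% of their summed FPKM in the CCI rats and 65.1%, 67.1% and 73.0% in the sham rats. Nos3 held 9.96%, 27.2% and 27.1% in CCI and 33.8%, 32.9% and 27.0% in sham, and Nos2 at most 1.06% in any library. The mean share of Nos1 was 9.98 percentage points higher in CCI, with an exact permutation p of 0.3, and 4.29 points higher without CCI rat 1. The mean share of Nos3 was 9.80 points lower (-9.80, exact permutation p = 0.3). Sham rat 3 had a larger Nos1 share than CCI rats 2 and 3, so the groups overlapped.

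On the FPKM scale, the order of levels in sham ran from Qdpr (50.6 ± 4.67, SD, n = 3) and Spr (5.70 ± 0.985) through Gchfr (2.74 ± 0.957), Pts (2.60 ± 0.380) and Nos1 (1.29 ± 0.0595) to Nos3 (0.595 ± 0.124) and Gch1 (0.522 ± 0.178), with Nos2 at the bottom. Gchfr and Pts could not be separated within their spread, and neither could Nos3 and Gch1. In CCI the order was Qdpr (69.3 ± 10.3), Spr (9.85 ± 2.83), Pts (2.94 ± 0.382), Gchfr (2.57 ± 0.525), Nos1 (2.48 ± 1.38), Gch1 (2.19 ± 1.24) and Nos3 (0.568 ± 0.102), again with Nos2 last. The libraries of Pts, Gchfr, Nos1 and Gch1 overlapped from each to the next, so their order in CCI is not separated by the spread. Gch1, whose sham libraries overlapped with those of Nos3, lay above Nos3 in all CCI libraries. The gene of the rate-limiting enzyme was therefore, after Nos2, the least abundant or next to least abundant transcript of the set in sham ganglia. Qdpr was the most abundant in both groups.

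Around these 8 genes, 37 others of the pathway were examined in 5 lists, of which 32 were tested. Tph2 and Arg1 were called higher in CCI, beside 2.57% of all rows, and none was called lower, beside 1.26%. An unadjusted p under 0.05 was found for 8 of 32, beside 10.7% of all rows, and 0 passed an adjusted p of 0.05 in edgeR's quasi-likelihood test. Calm3, Nos1ap and Prkg1 were not analysed here, and Th and Gucy1b2 lay under the level limit. The median log2 fold change of the 32 was 0.018, close to that of all rows. All CCI libraries were above all sham libraries for 6 of the 32 and below for 3 of them (beside 8.62% and 8.7% of all rows).

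**Figure D3:**
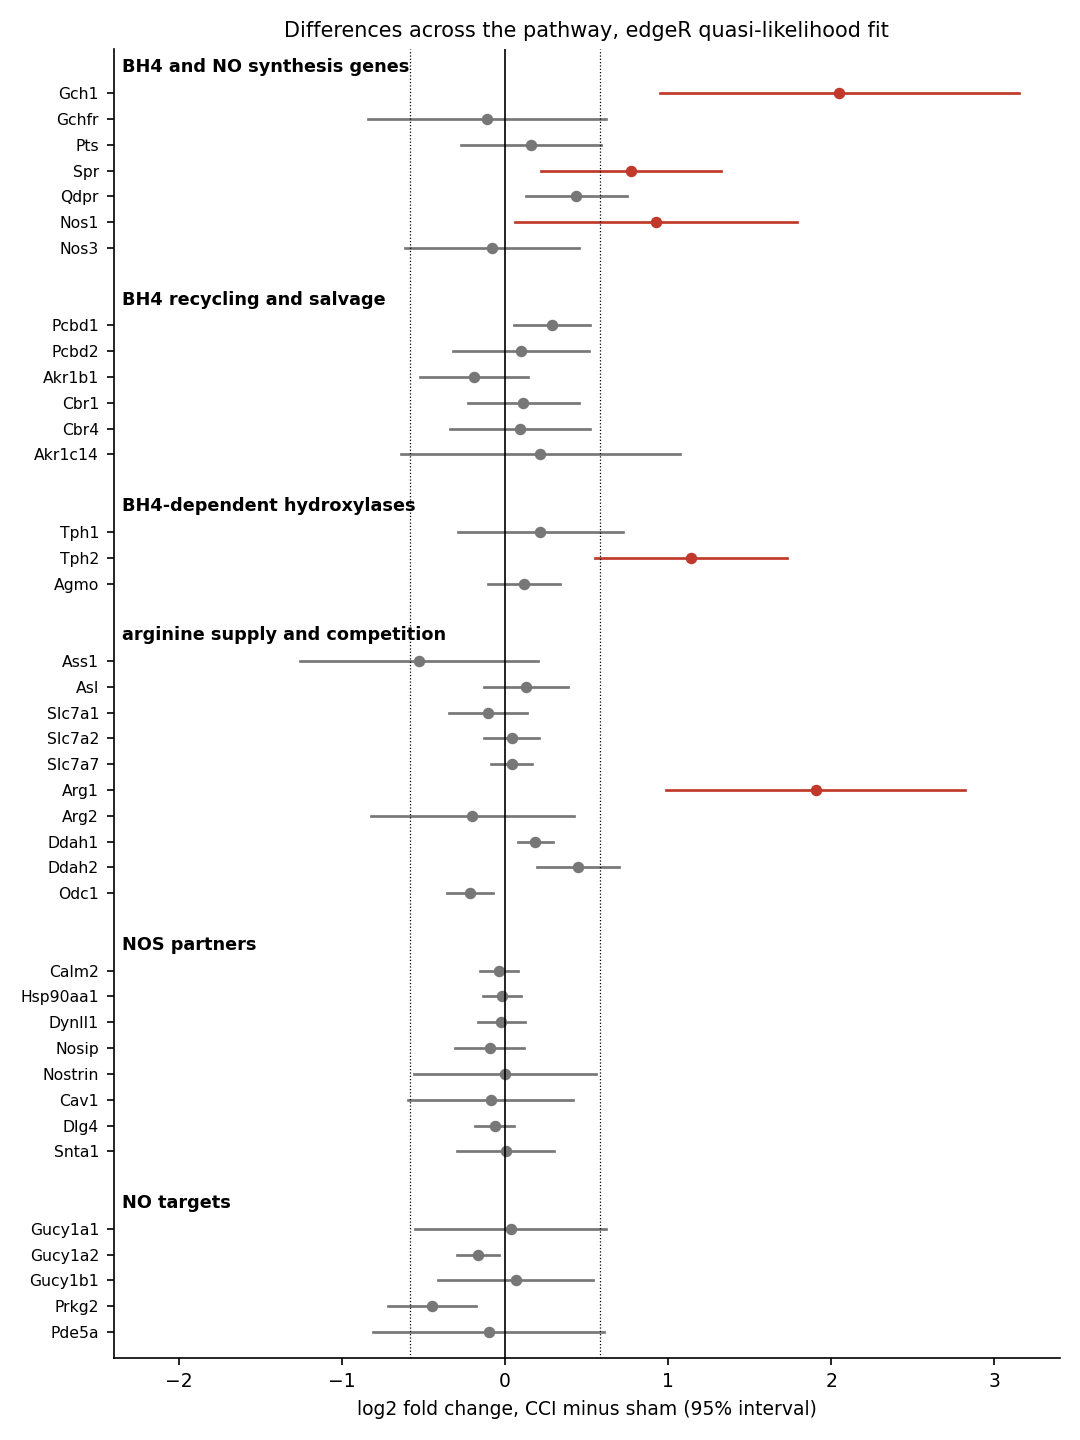
Log2 fold change of CCI minus sham (horizontal axis) with its 95% interval for the 7 tested genes of BH4 and nitric oxide synthesis and the 32 tested genes of the linked lists, from edgeR's quasi-likelihood fit. Red marks genes past the unadjusted limits and dotted lines the fold limit of 0.58, and the 5 red genes, Gch1 at 2.05 to Spr at 0.77, all lie to the right of 0.

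None of 6 genes of BH4 recycling and salvage, all tested, was called, and the list median was 0.11. Pcbd1, the pterin carbinolamine dehydratase that works beside Qdpr, was not called at 0.29. Akr1c14 and Akr1b1, aldo-keto reductases, were at 0.22 and -0.19, not called.

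BH4 also serves the aromatic amino acid hydroxylases, which make serotonin and catecholamine precursors. Of 4 BH4-dependent hydroxylase genes, 3 were tested and Tph2 was called. Tph2, the neuronal tryptophan hydroxylase, was at 26.1, 17.7 and 13.3 CPM in CCI and 8.49, 9.50 and 7.93 CPM in sham. It rose by a log2 fold change of 1.14 (SE 0.24, unadjusted p = 0.00283, adjusted p = 0.189 in edgeR's test), with every CCI library above every sham library. Tph1 (0.21) and Agmo (0.12), which encodes an ether lipid oxygenase, were not called. Th, the tyrosine hydroxylase, lay under the level limit, at 38 to 45 counts in CCI and 50 to 77 in sham.

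Arginine is the substrate of the synthases, and arginases compete for it. Arg1 was the only one of 10 genes of arginine supply and competition to be called, and the list median was 0.040. It was counted 380, 271 and 157 times in CCI and 88, 47 and 91 times in sham, without overlap. Arg1 rose by a log2 fold change of 1.90 (SE 0.38, unadjusted p = 0.00194, adjusted p = 0.167 with edgeR). Ass1, argininosuccinate synthase, which remakes arginine from citrulline, was at 39.6, 39.4 and 42.0 CPM in CCI and 67.0, 76.1 and 31.3 CPM in sham, with sham rat 3 below the CCI libraries. Its log2 fold change of -0.53 was not called, but it was -0.83 and called lower without sham rat 3, and -0.28 without sham rat 2. Ddah2, which breaks down the endogenous synthase inhibitor asymmetric dimethylarginine, was at 0.45 in a row that also carries Clic1, and Odc1, ornithine decarboxylase, at -0.22. Neither passed the fold limit. The calls of Tph2 and Arg1 were kept in all the alternatives.

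Partners of the synthases and the targets of nitric oxide gave no calls. Of 10 partner genes 8 were tested, with a median of -0.030, and the 3 of largest size were Nosip at -0.093, Cav1 at -0.089 and Dlg4 at -0.062. Nosip encodes a synthase-interacting protein, Cav1 caveolin, which binds the endothelial enzyme, and Dlg4 the postsynaptic scaffold PSD95, which binds the neuronal one. Of 7 target genes 5 were tested, with a median of -0.10. Prkg2, a cGMP-dependent protein kinase, was at 7.80, 8.98 and 8.54 CPM in CCI and 11.2, 10.7 and 12.6 CPM in sham, so that all CCI libraries were below all sham libraries, and its log2 fold change of -0.45 (unadjusted p = 0.00584, adjusted p = 0.243, edgeR) was under the fold limit. Gucy1a2, a subunit of the soluble guanylate cyclase that senses nitric oxide, was at -0.17 and Pde5a, which degrades cGMP, at -0.10. The symbol Prkg2 is on 4 rows and Gucy1a2 on 9, and the values given are those of 1 row each.

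Markers of injured neurons differed between the groups in the same libraries. The summed level of Atf3, Gal, Sprr1a, Sox11 and Gap43 was 291, 186 and 166 FPKM in CCI and 69.3, 71.0 and 63.0 FPKM in sham. All 5 were called higher, beside 2.57% of all tested rows, and their median log2 fold change was 3.47. The order of the CCI rats in this sum was that of Gch1, Qdpr, Tph2 and Arg1, with rat 1 highest and rat 3 lowest. Within the sum, Gal was lowest in CCI rat 2. Gch1, Spr and Nos1 were highest in rat 1 with the other 2 near each other, for Gch1 at 2.53 and 2.26 CPM. Spr and Nos1 did not have the order of the sum. Among the CCI rats they were lowest in rat 2, at 11.8 and 12.2 CPM, against 12.5 and 12.8 CPM in rat 3. Macrophage markers summed to 36.2, 32.1 and 26.3 FPKM in CCI and 19.1, 19.2 and 23.7 FPKM in sham, none of them at 0. The order of the CCI rats was thus the same for macrophage markers, as it was on the first principal component of all tested rows. Of these markers, 3 of 7 were called higher, beside the same 2.57% of all tested rows. Arg1 is also a known macrophage gene. The part of either cell state in the values of Gch1, Spr, Nos1 or the linked genes was not tested.

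**Figure D4:**
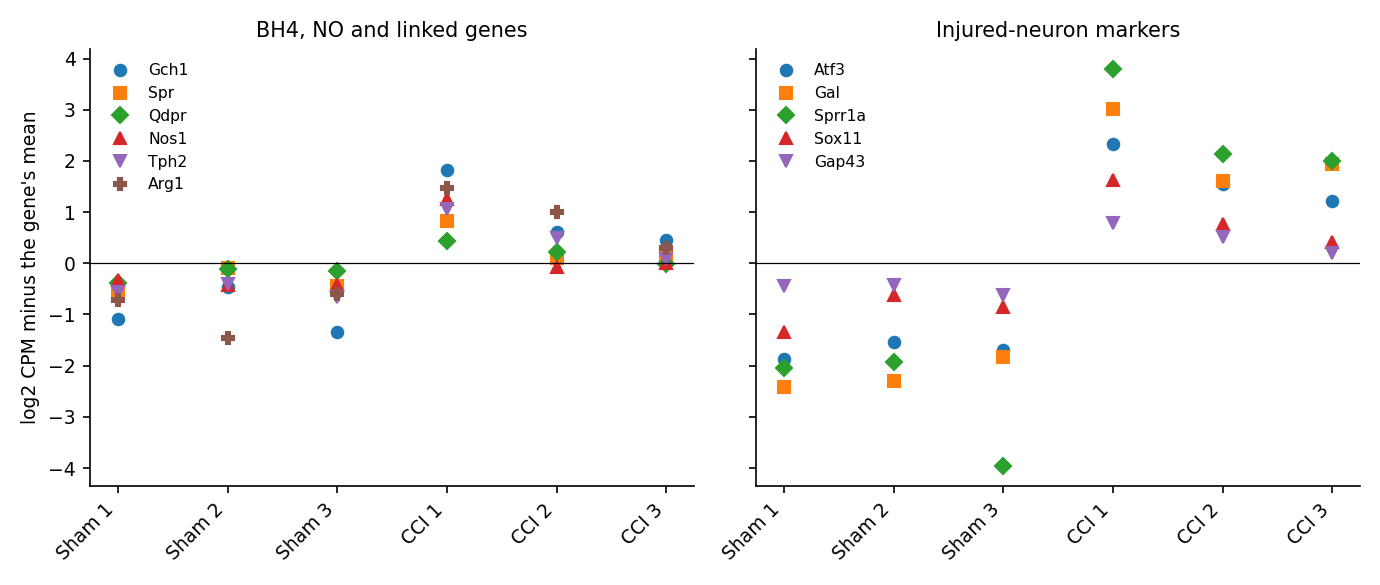
Log2 CPM of each gene minus its mean over the 6 libraries (vertical axis) by library, for 6 BH4, nitric oxide and linked genes (left) and 5 injured-neuron markers (right), on a shared scale. CCI rat 1 is the highest library for all 11 genes, and Gch1 reaches 1.83 above its mean there. The genes on the left were picked among those with every CCI library above every sham library. Of the tested synthesis genes not drawn, Gchfr and Nos3 were lowest in CCI rat 1 and Pts was highest in CCI rat 3.

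The rows most like Gch1 over the 6 libraries were found by the root mean square difference of log2 CPM, each row centred on its own mean, among 13705 protein-coding rows with a symbol. They were Sstr4, a somatostatin receptor, at 0.16, the transcription factor gene Sox11 at 0.26, the desmosomal gene Dsp at 0.30, Misp3 at 0.30 and Gabra5, a subunit of the GABA-A receptor, at 0.31. The median over all rows compared was 1.11. Sstr4 had 253, 82 and 93 counts in CCI and 29, 41 and 21 in sham. For Spr the nearest were LOC103692829 (0.041), Sbno2 (0.11), C2cd2 (0.11), AABR07044631 (0.12) and the joined row of Palm2 and Akap2 (0.12), where the median was 0.49. Nos1 was approached most by AABR07000989 (0.16), Smim35 (0.18), Actg2 (0.19), Ifnlr1 (0.20) and Grhl1 (0.20), with a median of 0.61. The 3 genes shared none of these neighbours, and several of the neighbours are low, such as AABR07000989 at 13 to 41 counts.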

How the data were processed

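Ribosomal RNA-depleted, dUTP-marked libraries of 6 rats were sequenced by the authors, who mapped reads with HISAT2 (2.0) and assembled them with StringTie (1.3.0), per the labels' processing notes. The deposited count values are whole reads per gene row without normalization. Deposited FPKM values, made by the authors, scale counts by total and length and list 0.0001 where the count is 0. Whether strand was used in counting is not given in the sources used here. The authors' comparison columns (fold changes and p-values) were not used. Rows without a symbol numbered 6849.

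Counts were fitted for rows averaging 0.5 FPKM or more with edgeR 4.0.16 (TMM factors 0.988 to 1.01, quasi-likelihood test, Benjamini-Hochberg adjustment over 26663 rows) in R 4.3.3, and the limits of p under 0.05 and log2 fold change of at least 0.58 follow the study. CPM uses TMM-scaled totals. The steps were tested on simulated data. Replicate pairs within groups correlated at 0.983 to 0.985 across rows and differed beyond counting noise. DESeq2 1.42.0, limma 3.58.1, edgeR's exact test, other filters, scalings and left-out libraries were alternatives, 18 in all. Intervals and the floor of 3 counts for a count of 0 cover the spread of libraries and counting error only. Genes named are the 8, the list genes called plus up to 3 more of a list by size of change, and the 5 nearest rows of each called gene. The members and lists were chosen with earlier results of these data known. Some genes of the lists are not reported here, and the lists are counted without them.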

Additional observations from a re-analysis of the deposited data

How the results depend on the processing

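Of 245 values recomputed under alternatives, 217 kept their direction and call or, for counts of genes, stayed within 1.5 times. Gch1, Pts and Qdpr did so in every alternative run. Spr ranged from 0.51 to 0.92 on the log2 scale when 1 library was left out, Nos1 from 0.36 to 1.16, Gchfr from -0.28 to 0.21, Nos3 from -0.23 to 0.059 and Nos2 (no filter) from -1.10 to 5.05. Nos1 was no longer called with limma on log2(FPKM + 1), at 0.53, or on log2(FPKM + 0.1), at 0.77. The number of the 8 genes called was 1 to 3 with 1 library left out, lowest without CCI rat 1. Those past an adjusted p of 0.05 numbered 1 with edgeR's exact test and 2 with DESeq2's Wald test. Over all rows, 1022 were called, against 571 with limma on log2(FPKM + 1) and 468 among protein-coding rows alone. Rows past an adjusted p of 0.05 were 25, against 14 with a prior without trend, 231 with the exact test, 751 with DESeq2, 76 among protein-coding rows and 6 to 61 with 1 library left out. Same-numbered CCI and sham rats did not deviate together (correlations -0.055 to -0.011), so no pairing by number was seen. Deviations from means of 3 libraries cannot exclude one. With a replicate block in edgeR's quasi-likelihood fit, 0 rows passed an adjusted p of 0.05, 935 were past the unadjusted limits, Nos2 was at 0.92, and the same number of the 8 genes, 3, was called. The cause of these changes was not tested. A mean FPKM limit of 1 gave no value for Nos2 and Nos3. With 3 libraries a group, intervals stay wide: that of Gchfr reaches from -0.84 to 0.62.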
